A study of Mus musculus with 10 samples.

Results

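The 10 genes described here encode proteins that move, store or sense calcium in muscle cells: Slc8a1, Trdn, Atp2a2, Ryr2, Itpr1, Pln, Cacna1c, Casq2, Jph2 and Kcnmb1. They were found by gene name among the 42989 genes of the deposited tables, and all 10 were found. Slc8a1 and Trdn were selected on their higher normalized counts in TDCA libraries, so their difference between the groups is a description with no test. RNA came from the distal ileum, the end of the small intestine before the colon, of 10 male wild-type C57BL/6J mice made obese by diet (DIO). From 10 weeks of age, 5 mice were gavaged for 4 weeks with TDCA and 5 with an equal volume of water. TDCA is taurodeoxycholic acid, the taurine conjugate of deoxycholic acid, a bile acid that gut bacteria form. It was given at 10 mg/kg. Obesity was shared by both groups, and no lean group was analysed here. Each library came from a piece of frozen tissue, in which markers of epithelium, muscle, nerves, vessels and connective tissue were all measured. The labels call the libraries biological replicates and do not say how the mice were housed or whether the pieces held equal parts of each layer.

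In a resting smooth muscle cell most calcium lies outside the cell or inside the sarcoplasmic reticulum, the calcium store. Contraction begins when calcium enters through voltage-gated channels of the cell membrane or leaves the store through ryanodine and inositol trisphosphate (IP3) receptors, and it ends when pumps and exchangers remove the calcium from the cytosol. In the gut wall this cycle drives peristalsis, and calcium released near the membrane also opens potassium channels that brake contraction.

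The libraries held 27349003 to 44342245 reads on genes, and 3 reads in a library correspond to 2.57 to 3.60 normalized counts (reads divided by a size factor per library). A smooth muscle score was computed per library as the mean of the log2 levels of 12 smooth muscle markers, each centred over the 10 libraries. The score was −1.09, 0.42, −0.67, 0.15 and −0.46 in water 1 to 5 and 0.39, 0.46, −0.028, 0.052 and 0.77 in TDCA 1 to 5. Its mean was −0.33 ± 0.61 in water and 0.33 ± 0.32 in TDCA (SD, n = 5 each). Water 1 had the lowest score and TDCA 5 the highest, and results are therefore also given without those 2 libraries. In whole tissue, fewer cells of a type and less RNA per cell cannot be told apart.

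Mean levels of all 10 genes were higher in the TDCA libraries, where 47.9% of all 17507 genes tested were higher. The group means differed by factors from 1.13 for Atp2a2 to 2.92 for Trdn. The median log2 fold change was 0.62 over the 10 genes, 0.56 over the 8 genes other than Slc8a1 and Trdn, and −0.013 over all genes tested. None of those 8 passed an adjusted p of 0.05 in limma, in which 0% of all genes tested passed. At an unadjusted p under 0.05, 1919 genes passed in limma, 1042 of them higher (5.95% of those tested). Of the 8 genes, Cacna1c and Casq2 were among these. The edgeR quasi-likelihood test also called 0 genes, and DESeq2 called 25 of the 13800 genes to which it gave an adjusted p. Without water 1 and TDCA 5, all 10 genes were still higher in mean level, and the median log2 fold change was 0.30.

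**Figure D1:**
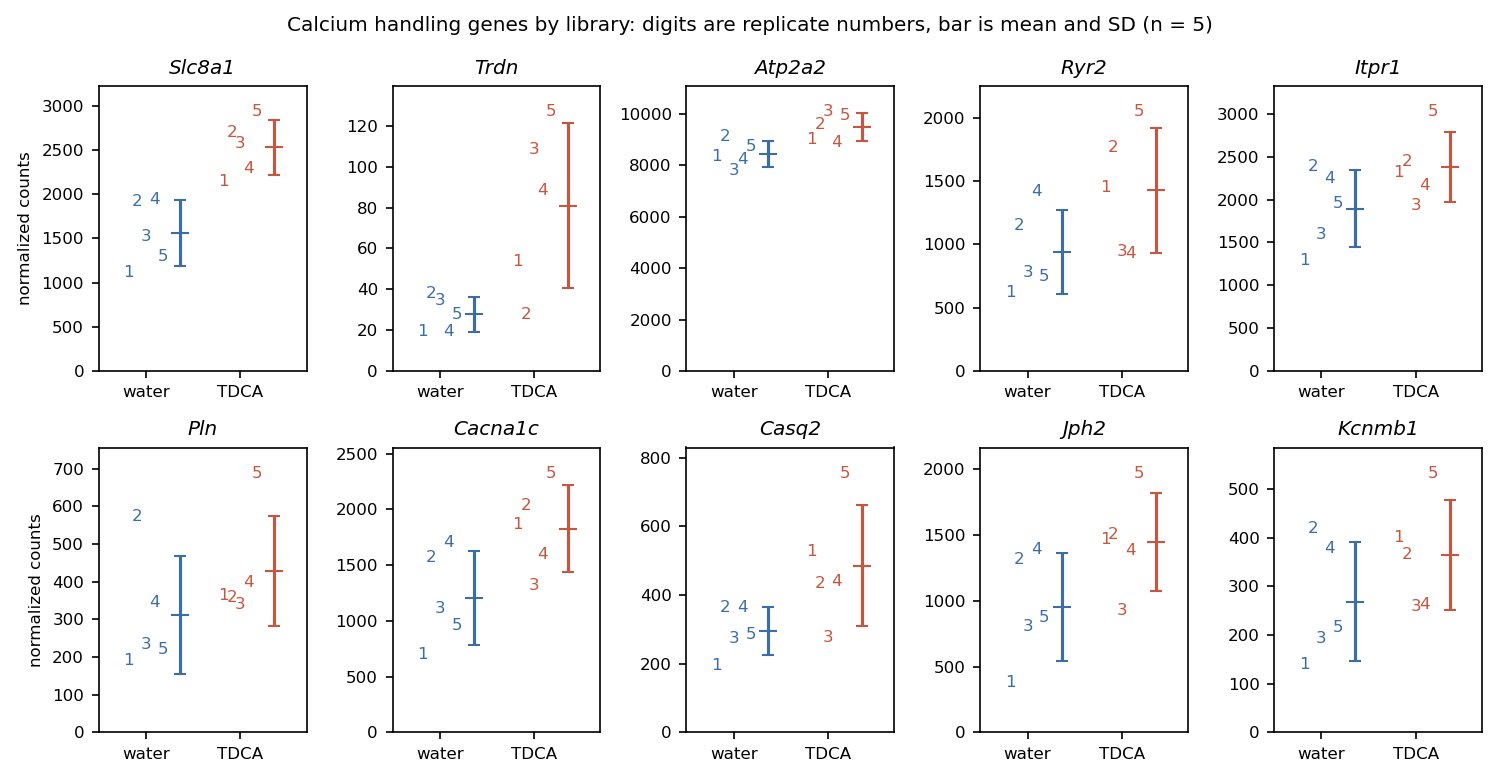
Normalized counts (vertical axes, linear from 0) of the 10 calcium handling genes in water libraries (blue) and TDCA libraries (red). Digits are replicate numbers, and the bar beside each group is its mean and SD (n = 5). Slc8a1 separates the groups, Trdn has 4 TDCA libraries above all water libraries, and for most other genes water 1 is lowest and TDCA 5 highest.

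Slc8a1 (ENSMUSG00000054640) encodes NCX1, an exchanger of the cell membrane that moves calcium out of the cell in return for sodium and can run in reverse. Its normalized counts were 1118, 1921, 1518, 1944 and 1295 in water 1 to 5 and 2145, 2699, 2569, 2295 and 2930 in TDCA 1 to 5. Every TDCA library lay above every water library, and TDCA 1 was the lowest and TDCA 5 the highest of the treated libraries. The means were 1559 ± 369 and 2528 ± 314 (SD, n = 5), a log2 fold change of 0.72 (SE 0.16). Ranges without overlap in this direction were found for 0.577% of the genes tested, and Slc8a1 was the 1 gene of the 10 with such ranges, a property its selection used. The authors' deposited table gives Slc8a1 a log2 fold change of 0.70 and an adjusted p of 0.0418. There, 0.0217% of the 13800 genes with an adjusted p were called higher, Slc8a1 and Trdn among them. Both were selected on the same counts, so their adjusted p and their calls add no support.

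Trdn (ENSMUSG00000019787) encodes triadin, a membrane protein of the calcium store that ties calsequestrin to the ryanodine receptor in heart and skeletal muscle. Its normalized counts were 19.2, 38.1, 34.4, 19.1 and 27.8 in water 1 to 5 and 53.4, 27.5, 108, 88.3 and 127 in TDCA 1 to 5. TDCA 2 lay inside the water range, and the other 4 TDCA libraries lay above it. These values rest on 16 to 34 reads in the water libraries and 27 to 143 in the TDCA libraries, the fewest reads of the 10 genes. The means were 27.7 ± 8.64 and 80.9 ± 40.4 (SD, n = 5), a log2 fold change of 1.38 (SE 0.39). The SD of the log2 level was 0.88 among TDCA libraries and 0.45 among water libraries. The authors' deposited table gives Trdn a log2 fold change of 1.54 and an adjusted p of 0.0395, from the counts on which it was selected.

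Calcium entry was represented by Cacna1c (ENSMUSG00000051331), the pore subunit of the L-type voltage-gated channel through which most calcium enters smooth muscle during an action potential. It had normalized counts of 699, 1572, 1107, 1702 and 957 in water 1 to 5 and 1863, 2036, 1318, 1596 and 2323 in TDCA 1 to 5. TDCA 3 and TDCA 4 lay inside the water range, and the other 3 TDCA libraries lay above it. The log2 fold change was 0.64 (SE 0.24, limma adjusted p = 0.448), which did not pass.

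Release from the store depends on Ryr2, a ryanodine receptor opened by calcium itself, and Itpr1, a receptor opened by IP3. Ryr2 (ENSMUSG00000021313) had normalized counts of 621, 1148, 782, 1422 and 745 in water 1 to 5 and 1448, 1770, 944, 928 and 2048 in TDCA 1 to 5. TDCA 3 and TDCA 4 were below water 2 and water 4, so the groups overlapped. The log2 fold change was 0.59 (SE 0.27, limma adjusted p = 0.460). Itpr1 (ENSMUSG00000030102) ranged from 1294 in water 1 to 2391 in water 2 and from 1936 in TDCA 3 to 3025 in TDCA 5. Its log2 fold change was 0.35 (SE 0.17, limma adjusted p = 0.484), and 3 of the 5 TDCA libraries lay inside the water range.

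Jph2 (ENSMUSG00000017817) encodes junctophilin 2, which in heart muscle holds the store close to the cell membrane where release channels and L-type channels face each other. Its counts were 378, 1313, 807, 1386 and 871 in water 1 to 5 and 1466, 1505, 925, 1383 and 1968 in TDCA 1 to 5. Water 1 held less than any other library, and TDCA 3 and TDCA 4 lay inside the water range. The log2 fold change of 0.70 (SE 0.33, limma adjusted p = 0.461) was 0.41 without water 1. Casq2 (ENSMUSG00000027861) encodes calsequestrin 2, which binds calcium inside the store. Its counts were 196, 363, 274, 363 and 285 in water 1 to 5 and 526, 434, 275, 440 and 754 in TDCA 1 to 5. As with Trdn, 4 of 5 TDCA libraries lay above the water range, but the library inside it was TDCA 3 for Casq2 and TDCA 2 for Trdn. The log2 fold change of Casq2 was 0.67 (SE 0.25, limma adjusted p = 0.448).

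The store is refilled by Atp2a2, the calcium pump SERCA2, which is restrained by phospholamban, the product of Pln. Atp2a2 (ENSMUSG00000029467) had normalized counts of 8347, 9129, 7783, 8221 and 8742 in water 1 to 5 and 8990, 9603, 10081, 8892 and 9934 in TDCA 1 to 5. The groups overlapped, and the span from the lowest to the highest library was 0.37 on the log2 scale, against 1.22 to 2.67 for the other 9 genes. Its log2 fold change was 0.17 (SE 0.11, limma adjusted p = 0.556). Pln (ENSMUSG00000038583) had normalized counts of 190, 573, 234, 345 and 220 in water 1 to 5 and 362, 359, 341, 397 and 688 in TDCA 1 to 5. Water 2 was above 4 of the 5 TDCA libraries, and the log2 fold change of 0.53 (SE 0.29, limma adjusted p = 0.519) was 0.34 without TDCA 5. Of the 2759 exon bases of Pln in the GENCODE annotation used for lengths, 1644 overlap Gm47644 and 141 overlap Cep85l on the other strand. Whether counting used the strand is unknown here, so the reads of Pln are uncertain.

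The brake on contraction was represented by Kcnmb1 (ENSMUSG00000020155), which encodes the β1 subunit that raises the calcium sensitivity of the BK potassium channel of smooth muscle. Its counts were 139, 418, 192, 378 and 216 in water 1 to 5 and 401, 366, 259, 262 and 532 in TDCA 1 to 5. Only TDCA 5 lay above the water range. The log2 fold change was 0.51 (SE 0.31, limma adjusted p = 0.549). Without water 1 the value was 0.30 for Kcnmb1 and 0.22 for Itpr1.

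The mice ranked much alike by most of these genes. TDCA 5 was the highest library for 9 of the 10, all but Atp2a2, and water 1 the lowest for 8, all but Atp2a2 and Trdn. After the group means were taken out, the log2 levels of the 8 genes other than Trdn and Atp2a2 correlated with each other over the 10 libraries, with Pearson's r from 0.567 to 0.955 over their 28 pairs and a median of 0.851. Trdn stood outside this pattern, with r from −0.183 to 0.426 with those 8 genes, and so did Atp2a2, with r from 0.0443 to 0.455. Trdn and Atp2a2 were set apart after the correlations were seen, so that choice shaped the range and median over the 28 pairs. Trdn also had the fewest reads of the 10 genes, and its part in the low r was not tested. These correlations are descriptions, since the libraries share their size factors and tissue makeup.

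The smooth muscle score followed the same order of mice. Over the 10 libraries, Pearson's r of the log2 level with the score was 0.975 for Kcnmb1 (Spearman's rho 0.927), 0.971 for Itpr1 (0.988), 0.962 for Cacna1c (0.915), 0.947 for Jph2 (0.927) and 0.919 for Ryr2 (0.939). For Pln it was 0.908 (rho 0.867), for Casq2 0.888 (0.830) and for Slc8a1 0.873 (0.758). It was lower for Atp2a2 (r 0.661, rho 0.624) and Trdn (r 0.492, rho 0.333). After the group means were taken out, r was 0.0869 for Trdn and 0.401 for Atp2a2, and 0.820 to 0.988 for the other 8 genes. Without water 1 and water 3, the libraries farthest from the median score, r was 0.736 to 0.944 for those 8 genes, 0.401 for Atp2a2 and 0.273 for Trdn (n = 8). The 10 relations are given without p-values because the genes were chosen with earlier results of these data known.

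**Figure D2:**
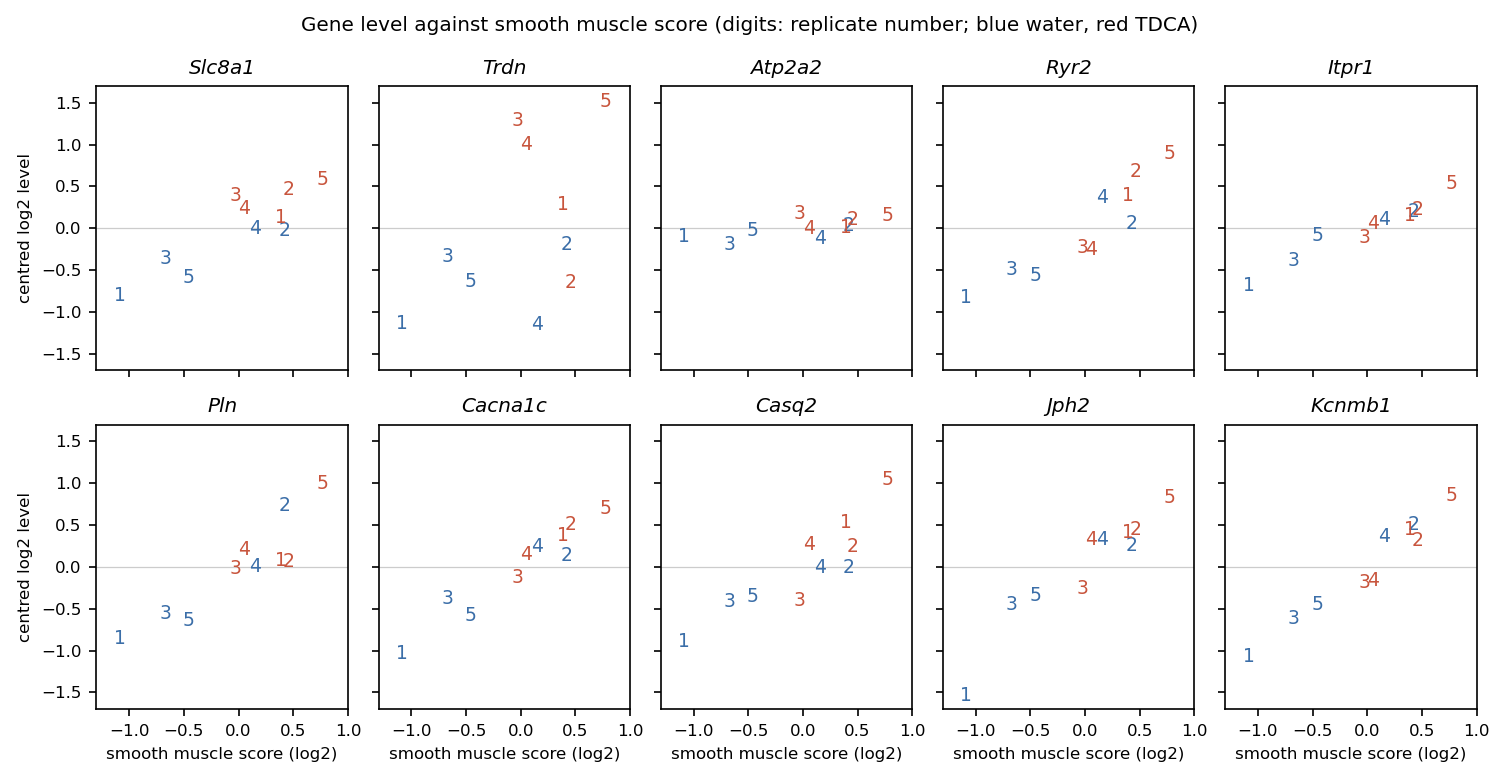
Log2 level of each of the 10 genes centred on its mean (vertical axes) against the smooth muscle score of the library (horizontal axes, log2 scale). Digits are replicate numbers, blue for water and red for TDCA. Itpr1, Cacna1c, Jph2 and Kcnmb1 climb with the score, Atp2a2 lies near 0 throughout, and the Trdn libraries are scattered.

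The slope on the score, in a fit that let the group means differ, ranged widely among the genes. The log2 level changed by 1.14 per unit of score for Kcnmb1 and 1.13 for Jph2. It changed by 0.98 for Pln, 0.91 for Ryr2, 0.83 for Cacna1c and 0.76 for Casq2. The slope was 0.61 for Itpr1, 0.47 for Slc8a1, 0.12 for Trdn and 0.070 for Atp2a2. With the score as a covariate in limma, 0% of all genes tested were called and 49.2% had a log2 fold change above 0, as had 5 of the 10 genes. Their median was then 0.046, with Slc8a1 and Trdn, which were selected for their rise, included. Of the other genes only Casq2, Atp2a2 and Cacna1c were above 0. The values were 0.41 (SE 0.13) for Slc8a1 and 1.30 (SE 0.50) for Trdn. For the remaining genes they were 0.17 for Casq2, 0.12 for Atp2a2, 0.10 for Cacna1c, −0.0045 for Ryr2, −0.037 for Jph2, −0.052 for Itpr1, −0.11 for Pln and −0.24 for Kcnmb1. The score differed between the groups, so TDCA and muscle content are in part confounded in this fit. Whether the share of muscle in the pieces accounts for the group differences was not tested.

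**Figure D3:**
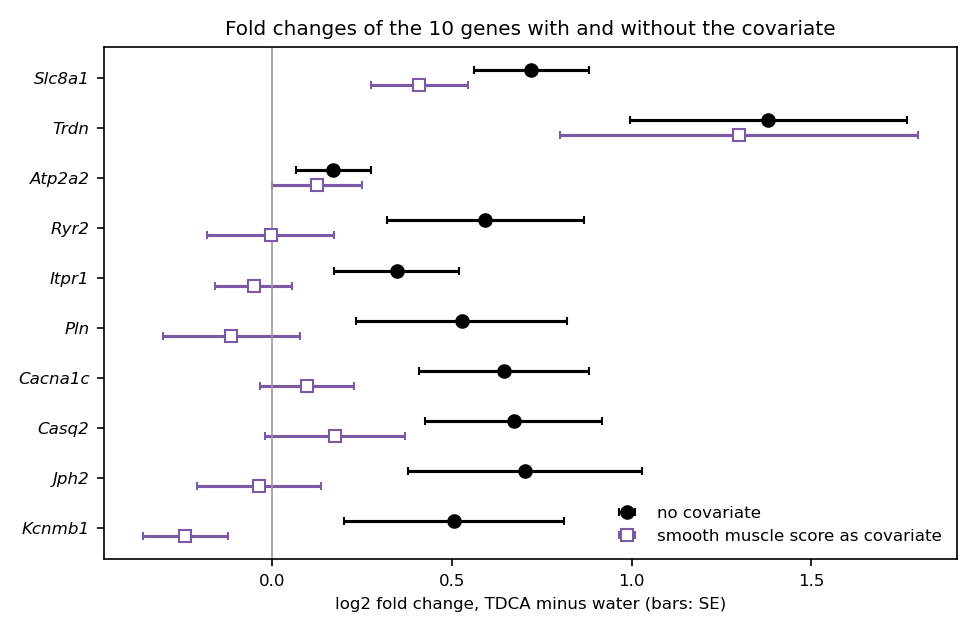
Log2 fold change of TDCA minus water (horizontal axis) for each of the 10 genes in limma, without a covariate (black circles) and with the smooth muscle score as covariate (open squares). Bars are 1 SE. Trdn is at 1.38 and 1.30, Slc8a1 at 0.72 and 0.41, and the squares of the other 8 genes lie between −0.24 and 0.17.

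Ratios of normalized counts between genes of the same library were also compared, and these ratios were chosen after the values were seen. The ratio of Slc8a1 to Atp2a2 was 0.185 ± 0.0429 in water and 0.266 ± 0.0224 in TDCA (SD, n = 5). The highest water library had 0.237 and the lowest TDCA library 0.239, so the ranges did not overlap. Taken against Atp2a2, 0.131% of all genes were higher in TDCA with ranges that did not overlap, and Slc8a1 had been selected for its own higher counts, so nothing further is read from this separation. Against Myh11, the smooth muscle myosin heavy chain, Slc8a1 was at 0.0303 ± 0.00862 in water and 0.0282 ± 0.00505 in TDCA, with overlapping ranges. The ratio of Trdn to Ryr2, its binding partner, was 0.0318 ± 0.0114 in water and 0.0648 ± 0.0407 in TDCA, again with overlapping ranges. The ratio of Kcnmb1 to Myh11 was 0.00476 ± 0.000219 in water and 0.00391 ± 0.000406 in TDCA. Its water libraries lay at 0.00453 or above and its TDCA libraries at 0.00435 or below. Taken against Myh11, 1.8% of all genes were lower in TDCA with ranges that did not overlap, and Kcnmb1 was the 1 gene of the 10. Against its own partner Kcnma1, the pore of the BK channel, Kcnmb1 was at 0.296 ± 0.0263 in water and 0.277 ± 0.0379 in TDCA, with overlapping ranges.

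Levels of different genes were compared as normalized counts per kilobase of exon, in whole tissue and not in muscle cells alone. Atp2a2 had by far the highest level, 1389 ± 84.4 per kilobase in water and 1562 ± 88.9 in TDCA (SD, n = 5). The water means then ran through Jph2 at 224, Pln at 113, Casq2 at 108, Itpr1 at 104, Slc8a1 at 82.9, Kcnmb1 at 64.1, Cacna1c at 57.0 and Ryr2 at 32.8 to Trdn at 2.96. Trdn was thus the rarest in both groups, with 8.65 per kilobase in TDCA. Of neighbours in this order, only Atp2a2 over Jph2 and Ryr2 over Trdn had ranges that did not overlap, in either group. Pln exceeded Casq2 in only 1 of 5 water mice. The order in TDCA placed Casq2 (178) above Pln (156) and Slc8a1 (134) above Itpr1 (130). With the longest transcript in place of all exons, Itpr1 was at 192 and Cacna1c at 91.7 in water, both above Slc8a1 at 84.4, so the middle of the order depends on the length used.

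The place of each gene among its paralogs differed little between the groups, in families assembled after the data were seen. All shares are of whole tissue and not of muscle cells alone, and they use the length of all exons. With the longest transcript instead, water levels per kilobase were 91.7 in place of 57.0 for Cacna1c and 56.1 in place of 32.8 for Ryr2. For Itpr1 the level was 192 in place of 104. Shares on that length were not computed, so the sizes and order of the shares may depend on the length used. Slc8a1 made up 68.7% ± 4.49 of the summed level per kilobase of the Slc8a exchangers in water and 70.1% ± 3.45 in TDCA (SD, n = 5), and Slc8a2 and Slc8a3 shared the rest. Ryr2 held 52.9% ± 2.63 and 51.8% ± 5.89 of the ryanodine receptors, with Ryr3 at 46.2% and 47.7% and Ryr1, the form of skeletal muscle, at 0.876% and 0.453%. By this length Itpr1 was the least abundant IP3 receptor, at 15.7% ± 3.71 and 17.9% ± 3.88, below Itpr2 and Itpr3. Atp2a2 held 70.0% and 68.6% of the SERCA pumps, Atp2a3 nearly all the rest, and the skeletal form Atp2a1 was at or under 2.04 normalized counts in every library. Casq2 held 96.2% and 96.3% of the calsequestrins, Jph2 91.1% and 93.3% of the junctophilins and Kcnmb1 89.2% and 89.7% of the BK β subunits. Of the summed pore subunits Cacna1c, Cacna1d, Cacna1g, Cacna1h and Cacna1i, Cacna1c held 40.5% and 44.0%. That was close to the T-type gene Cacna1h at 43.0% and 42.8%, and other pore genes were not in the sum. The group means of each member's share differed by less than the larger SD of the pair, except for Jph2.

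**Figure D4:**
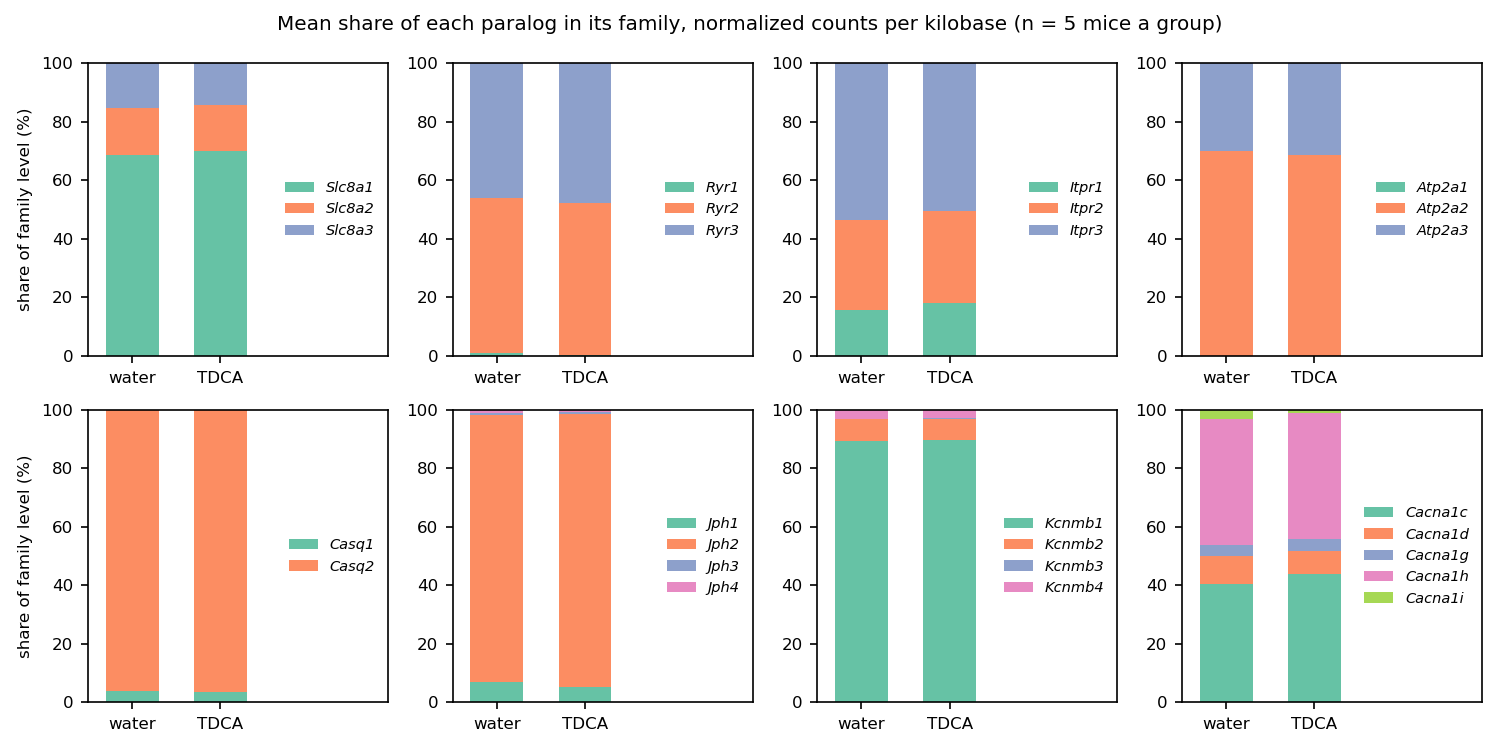
Mean share (percent, vertical axes) of each paralog in the summed normalized counts per kilobase of its family, for water and TDCA (n = 5 mice each). The bars of the 2 groups nearly match in all 8 families; Slc8a1, Casq2, Jph2 and Kcnmb1 take most of their families, and Itpr1 the smallest part of its own.

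Promoter sequence is shown for 3 of the 8 genes that varied together over the mice, each with a marked site. Whether such sites have a part in that pattern was not tested. RefSeq (GRCm38.p6) gave windows from 250 bases before to 50 bases after the start for 7 of the 10 genes, 10 windows in all. The build differs from the one in the submitters' processing notes (GRCm39), and the windows are used for their letters only. In the lines that follow, read 5′ to 3′ on the gene's strand, capitals mark a CArG box with 1 mismatch in its middle in Slc8a1 and Jph2, the sequence AGATAA in Slc8a1, and a MEF2 site in Casq2. A CArG box is the sequence bound by serum response factor, and MEF2 and GATA factors bind the other sites.
Slc8a1, chr17:81738338-81738637, minus strand: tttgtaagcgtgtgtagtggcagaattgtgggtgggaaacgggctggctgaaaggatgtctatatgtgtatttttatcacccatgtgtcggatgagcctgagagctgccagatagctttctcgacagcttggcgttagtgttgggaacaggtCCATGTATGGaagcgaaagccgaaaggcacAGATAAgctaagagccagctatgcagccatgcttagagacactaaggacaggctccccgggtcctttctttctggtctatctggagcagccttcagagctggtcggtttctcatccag
Jph2, chr2:163397944-163398243, minus strand: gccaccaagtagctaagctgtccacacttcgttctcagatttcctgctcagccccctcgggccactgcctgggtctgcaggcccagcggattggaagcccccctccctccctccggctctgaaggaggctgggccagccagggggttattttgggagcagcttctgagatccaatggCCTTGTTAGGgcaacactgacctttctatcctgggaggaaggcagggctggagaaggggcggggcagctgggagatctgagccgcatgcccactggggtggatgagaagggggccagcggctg
Casq2, chr3:102086165-102086464, plus strand: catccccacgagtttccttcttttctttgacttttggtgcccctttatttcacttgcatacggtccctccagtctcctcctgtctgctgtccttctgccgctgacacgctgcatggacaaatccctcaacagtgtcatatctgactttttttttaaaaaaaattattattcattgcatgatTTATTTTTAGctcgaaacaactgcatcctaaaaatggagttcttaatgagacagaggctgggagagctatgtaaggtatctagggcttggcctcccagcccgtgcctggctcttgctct
The CArG box with 1 mismatch, CCATGTATGG, begins 98 bases before the Slc8a1 start, and AGATAA begins 68 bases before it. CCTTGTTAGG begins 73 bases before the Jph2 start, and TTATTTTTAG 69 bases before the Casq2 start. The motifs were chosen after the sequences were seen and were searched on both strands. A perfect CArG box was in 0 of the 10 windows and in 1.63% of all 32851 RefSeq windows of the same length. A CArG box with 1 mismatch was in 5 of the 10 and in 8.5% of all, a MEF2 site in 1 and 3.19%, and AGATAA in 2 and 11.2%. The 5 windows are from Slc8a1, Cacna1c and Jph2, and the 2 Jph2 windows overlap. Of the marked motifs, the windows of Ryr2 and Kcnmb1 held none and that of Pln held only AGATAA. A match describes letters and not a bound site.

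The genes outside the 10 that complete the calcium cycle were counted in 8 lists, and none of their members passed an adjusted p of 0.05 in limma. The list of voltage-gated calcium channel subunits leaves out some of these genes. All 11 of its tested genes were higher in mean level, with a median log2 fold change of 0.46. Without water 1 it was 0.24, with 10 of 11 higher. They include Cacna2d1 (0.69, SE 0.24), an auxiliary subunit that brings the channel to the membrane, and Cacnb4 (0.82, SE 0.25), a cytoplasmic subunit. Of 10 genes of store refill and cation entry, 7 were higher and 3 lower, with a median of 0.19. Without water 1 it was 5 of 10 with a median of 0.073, and without TDCA 4 the median was 0.12. Among them the cation channel gene Trpc4 (0.76, SE 0.25) was higher in mean level, and Saraf, which limits store-operated entry, had 1831 ± 270 normalized counts in water and 1474 ± 152 in TDCA (SD, n = 5). The ranges of Cacnb4 narrowly missed overlap, with at most 38.2 normalized counts in water and at least 38.6 in TDCA. Ranges without overlap in this direction were found for 0.577% of the genes tested, and Cacnb4 was named for its small p.

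All 11 tested release channels and partners had higher means, with a median of 0.26. Ryr3 was at 0.67 (SE 0.28) and Irag1, which links the IP3 receptor to cyclic GMP signalling, at 0.60 (SE 0.26). Among pumps and buffers of the store, 5 of 6 were higher, including Atp2a3 at 0.27 (SE 0.14) and the calcium-binding protein gene Rcn3 at 0.55 (SE 0.25). All 8 tested genes of calcium exit across the cell membrane were higher in mean level, with a median of 0.54 that was 0.35 without water 1, with 7 of 8 higher. Atp2b4, a calcium pump of that membrane, was at 0.61 (SE 0.22) and Slc24a3, a potassium-dependent sodium-calcium exchanger, at 0.53 (SE 0.23).

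Of 13 potassium channel genes, 11 had higher means, with a median of 0.49. Without water 1 the median was 0.28, with 10 of 13 higher. The higher genes include Kcnma1 (0.61, SE 0.24) and Kcnj8 (0.71, SE 0.26), the pore of an ATP-sensitive channel. Of 20 genes of calmodulin and myosin light chain control, 16 were higher, including the myosin phosphatase subunit gene Ppp1r12a (0.44, SE 0.15) and the cyclic GMP-dependent kinase gene Prkg1 (0.74, SE 0.25). Of 16 receptors and Gq signalling genes, 13 were higher, including the phospholipase genes Plcb1 (0.29, SE 0.11) and Plcb4 (0.72, SE 0.29). With the smooth muscle score as covariate the medians of all 8 lists lay between −0.12, for the potassium channels, and 0.10, for the release channels and partners.

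**Figure D5:**
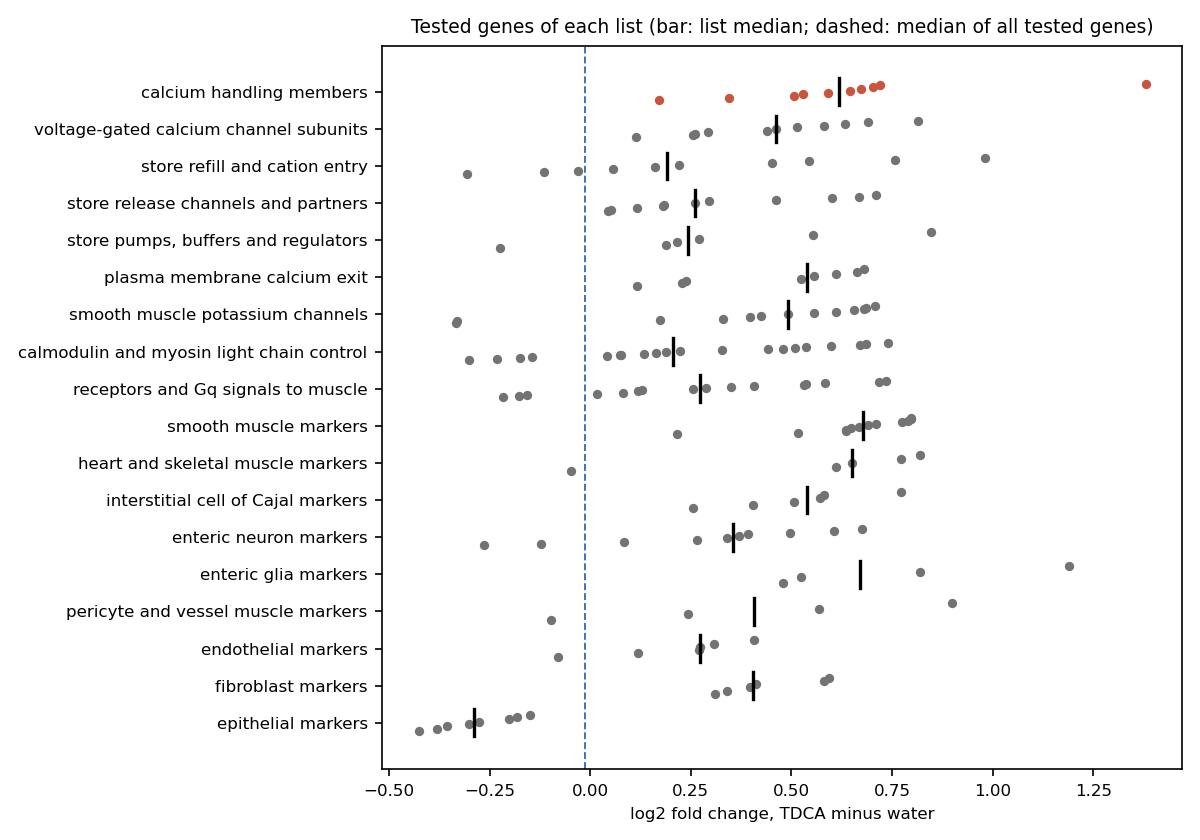
Log2 fold change of TDCA minus water (horizontal axis) of each tested gene in 18 lists; red points are the 10 calcium handling genes, black bars list medians, and the dashed line the median of all tested genes (−0.013). The medians of the muscle and stromal lists lie to the right of the line, and that of the epithelial list (−0.29) to the left.

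Markers of muscle moved with these genes. All 12 smooth muscle markers had higher means in TDCA, with a median log2 fold change of 0.68 and summed levels of 60107 to 185692 normalized counts in water and 141708 to 246536 in TDCA. The most abundant, Myh11, had 56985 ± 27073 normalized counts in water and 92074 ± 21080 in TDCA (SD, n = 5). All 8 epithelial markers were lower, with a median of −0.29 and sums of 249355 to 331298 in water and 158679 to 319260 in TDCA. Without TDCA 5 the median was −0.14 and 1 of the 8 was higher. Without both water 1 and TDCA 5, the smooth muscle median was 0.36 and the epithelial median −0.18. Of 15 heart and skeletal muscle markers, 5 passed the filter on low counts, of which 4 were higher and 1 lower, with a median of 0.65 that was 0.43 without water 1. The list summed to 420 to 1024 normalized counts in water and 730 to 1521 in TDCA. The heart genes Myh6, Myl2 and Nppa lay between 0 and 4.44 normalized counts in every library, where Trdn had 19.1 to 127. Myl7, an atrial gene, had 13.5 to 45.6 normalized counts in water and 15.8 to 29.6 in TDCA, with a log2 fold change of −0.049 (SE 0.34). Tnnt2, the cardiac troponin T gene, had 305 ± 108 normalized counts in water and 469 ± 190 in TDCA, and Myh7, the slow myosin heavy chain gene, 66.0 ± 31.3 and 115 ± 50.6 (SD, n = 5). The part of these markers in the result for Trdn was not tested.

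By likeness of log2 level over the 10 libraries, among 12127 tested genes whose mean was 50 or more normalized counts, the 5 genes most like Slc8a1 were Mfap3l (Pearson's r 0.979), Tgfb2 (0.968), Fat4 (0.962), Fgfr2 (0.957) and Tmod2 (0.956). Their r after the group means were taken out was 0.899 to 0.942. The 5 most like Trdn were Snapin (0.913), Phldb1 (0.906), Parm1 (0.889), Mindy2 (0.889) and Slc15a2 (0.888), with 0.739 to 0.849 after the group means were taken out. No gene was on both lists of 5. These are the highest of 12127 values of r over 10 libraries, so they are high in part because they were picked as the highest. The ranking also used the rise on which Slc8a1 and Trdn were selected. The values of r without the group means come from the same libraries, so nothing further is read from either list.

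Transcript length also moved with the groups. The log2 level of each gene was centred on its mean over the 10 libraries and correlated with exon length over genes in each library. Spearman's correlation was −0.143 to −0.0372 in water and −0.0510 to 0.110 in TDCA. Because of the centring, these values are relative to the other libraries and do not relate level itself to length. The median log2 fold change ran from −0.086 in the shortest decile of genes to 0.056 in the longest. Slc8a1, Ryr2, Itpr1 and Cacna1c are in the longest decile. With the trend on length removed in each library, all 10 genes still had higher means. The log2 fold change was 0.59 for Slc8a1, 1.31 for Trdn and 0.50 for Cacna1c, and the median of the 10 was 0.52.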

How the data were processed

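Libraries of total RNA without ribosomal RNA were made from about 20 mg of frozen distal ileum per mouse, per the labels' protocols. DESeq2 1.28.0, MultiQC 1.9 and the build GRCm39 are named in the submitters' processing notes. The strand setting, aligner, counter and annotation were not given in the sources used here. Normalized counts per gene, deposited by the authors, are a signal: reads divided by a size factor per library. The authors' deposited comparison table holds, per the file headers, log2 fold changes, a test score, p-values and adjusted p-values. Its columns named Treatment and Control are of unstated origin and were not used. Values of the signal were whole multiples of a step per library in 100% of cases (tolerance 1e-04 of a read), and division by the step gave whole reads.

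Genes with at least 10 normalized counts in at least 5 libraries (17507 of 42989) were tested on log2(normalized count + 1) with limma 3.58.1 in R 4.3.3 (trend and robust moderation). Tests were two-sided, p-values were adjusted by Benjamini and Hochberg's method over every gene in the fit, and the threshold was 0.05. Log2 fold changes are TDCA minus water on that scale, which understates changes of genes with low counts. edgeR 4.0.16, DESeq2 1.42.0 and limma-voom on recovered reads were alternatives, as were pseudocounts of 0.5 and 8, other filters, TMM and quantile normalization, moderation without robustness, a replicate block, leaving out libraries, the smooth muscle score as covariate, and removal of the trend on transcript length (lowess, span 0.3). The limma fits without and with the score and with the length trend removed, edgeR, DESeq2 and limma-voom were first tested on simulated data, the other settings not. In the simulated data the genes varied independently of each other. No interval on single read counts is given.

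Exon lengths and overlaps were taken from GENCODE M21 by gene identifier, with lengths for 99.4% of genes tested. It belongs to GRCm38, so none of its coordinates are used. The genes and lists were chosen with earlier results of these data known. Besides the 10 genes, the text names in each list the 2 tested genes with the smallest limma p and some of those with the highest mean, and for Slc8a1 and Trdn the 5 genes with the most similar levels. Some genes that this rule names are not reported here. Myh6, Myl2, Nppa, Acta1, Ckm, Myl7, Pdgfrb and the paralogs were named after their values were seen. Predicted gene models are named only as overlaps. Erln, Arln and Mrvi1 were listed but not found by those symbols, and Mrvi1 is the older name of Irag1.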

Additional observations from a re-analysis of the deposited data

Results flagged for a closer look

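Within each group of 5 libraries, a library was looked at again when its gap to the nearest other library, divided by the range of the group, was above 0.71. Chance gives about 1 such case in 20 groups, and 5 of 104 groups (52 genes in water and in TDCA) met the rule. In all 5 it was TDCA 5 that was highest among the TDCA libraries. Of the 10 calcium handling genes it was Pln, with 688 normalized counts against 341 to 397 in the other 4 TDCA libraries. Cacna2d1 had 2655 against 1432 to 1771. Plcb4 had 1906 against 935 to 1069, and Etv1, a transcription factor gene of interstitial cells of Cajal, had 908 against 531 to 578. S100b, a marker of enteric glia, had 153 against 51.6 to 61.1. TDCA 5 also had the highest smooth muscle score of the 10 libraries, 0.77.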

How the results depend on the processing

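Limma called 0 genes, and so did every other setting except DESeq2. That test called 25 of the 13800 genes to which it gave an adjusted p, and 2214 genes had an unadjusted p under 0.05. Slc8a1 and Trdn were among the 25, but both had been selected on the same counts, so their calls add no support. The cause of the difference between DESeq2 and the other settings was not tested. In the simulated data, which held 200 changed genes, DESeq2 made 29 false calls and the other tests 5 to 7 each. There DESeq2 recovered 89% of the 2-fold changes, and the other tests 54.9% to 78%. The simulation drew each gene independently, without variation in muscle content or transcript length shared by the genes of a library. Its rates may therefore not hold in these libraries, and they do not explain the 25 calls. With the smooth muscle score as covariate, the median log2 fold change of the 10 calcium handling genes was 0.046, against 0.62. Both medians include Slc8a1 and Trdn, which were selected for their rise. In that fit the log2 fold change turned from above 0 to −0.024 for Irag1, −0.052 for Itpr1, −0.037 for Jph2, −0.24 for Kcnmb1, −0.11 for Pln, −0.0045 for Ryr2 and −0.047 for Tnnt2, and Slc8a1 was at 0.41. It also turned for the paralogs Slc8a2 (0.66 to −0.059), Slc8a3 (0.56 to −0.036) and Cacna1h (0.51 to −0.073). Under the other alternatives all tested members were higher in TDCA. Over all results and settings, 1729 values kept their direction and their side of the threshold or moved by less than the spread between libraries. Another 12 moved by more than that spread, 7 reversed, and 1, the number of genes called by DESeq2, was stronger. Since every setting but DESeq2 called 0 genes, few genes could change their side of the threshold. Leaving out each library in turn gave medians of 0.43 to 0.76, log2 fold changes of 0.61 to 0.81 for Slc8a1 and 1.17 to 1.71 for Trdn, and 0 called genes each time. Without water 1 and TDCA 5 the values were 0.55 for Slc8a1 and 1.06 for Trdn. A filter of 50 normalized counts removed Trdn and left 9 of the genes. With a replicate block, 0 genes were called and 1582 had an unadjusted p under 0.05, against 1919. Libraries of the same number did not deviate together (r of −0.0607, −0.137, 0.0756, −0.148 and 0.174, with the best partner of 1 of 5 being its own number), so the numbers were not used as pairs. Depth limits Trdn most, at 16 reads in its lowest library.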

Other observations

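Other cells of the muscle layers were measured in the same libraries. All 6 tested genes listed for interstitial cells of Cajal, the pacemakers of gut muscle, had higher means in TDCA. Their median log2 fold change was 0.54, and their summed levels were 2405 to 5816 normalized counts in water and 4411 to 7479 in TDCA. Whether the listed genes mark these cells alone was not tested. The gap junction gene Gja1 (0.77, SE 0.26) and Etv1 (0.57, SE 0.19) had the smallest p-values of that list. All 4 tested markers of enteric glia were higher, with a median of 0.67 that was 0.45 without water 1. Of 10 neuron markers, 8 were higher, with a median of 0.35 that was 0.12 without water 1 and 0.22 without water 5. Of 4 tested pericyte and vessel muscle markers, 3 were higher, with a median of 0.41, from Pdgfrb at −0.099 to Rgs5 at 0.90 (SE 0.31). All 6 fibroblast markers were higher, with a median of 0.40, and 5 of 6 endothelial markers, with a median of 0.27. Without both water 1 and TDCA 5 the medians were 0.29 for interstitial cells of Cajal, 0.30 for glia, 0.10 for neurons, 0.20 for pericytes and 0.15 for fibroblasts. None of these genes passed an adjusted p of 0.05 in limma.

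With the smooth muscle score as covariate the medians were 0.14 for interstitial cells of Cajal, 0.041 for glia, 0.13 for neurons, −0.00021 for fibroblasts and 0.24 for endothelium. The part of tissue sampling in these values was not tested.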
